A study of Homo sapiens with 8 samples.

Results

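Genes named for protein kinases, protein phosphatases, their subunits and their close partners were followed through an m6A comparison of decitabine-treated and DMSO-treated HL-60 cells. They were taken from the authors' deposited table by the start of their name (the MAPK, MAP2K, MAP3K, CDK, NEK, CSNK, DYRK, HIPK, STK, WNK, TAOK, PRK, CAMK, PIK3, AKT, MTOR, JAK, DUSP, PTPN, PTPR, PPM1 and numbered PPP stems, with others such as PLK, WEE1, ATM and ATR that had no listed feature). The rule leaves out CDK2, at a negative 227-fold per the authors' deposited table, and the antisense RNA MAPKAPK5-AS1, at a positive 107-fold, so neither enters a count of members. This gave 89 of the 4626 listed features and 65 of the 3114 gene names. The rule reads gene names and no measured value, although it was drawn up with earlier results of these data known. It also takes in 7 genes that are neither kinase nor phosphatase subunits: MAPKBP1, MAPK1IP1L, AKT1S1, PRKRIP1 and PTPRCAP, named for a kinase or phosphatase they are linked to, and MAPK8IP1P2 and PTPN2P1, pseudogenes by name.

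HL-60 is an established human promyelocytic leukaemia line, labelled as wild type. Decitabine, a deoxycytidine analogue that depletes DNA methyltransferases, was added to 100 nM on 3 occasions (0, 24 and 48 hours), and RNA was taken at 72 hours. Each treatment had 2 m6A immunoprecipitates and 2 input libraries, and the labels call the cultures duplicates without saying more of their independence. The table holds a single log ratio and p-value per feature, so no value per library, no replicate spread and no depth can be given, and precision is unknown. No source used here says whether it was corrected for input, so a ratio may hold a difference in RNA level as well as in m6A. Of 10 myeloid markers 2 were listed (SPI1 and CEBPA), and of the lymphoid and erythroid markers 0 of 4 and 0 of 4. Since the table holds changes and not levels, it cannot check the cell type.

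Protein kinases transfer phosphate from ATP to proteins, and phosphatases remove it. Many of them work in relays, in which each kinase switches on the next, and the catalytic phosphatase subunits are few while many regulatory subunits direct them to substrates. N6-methyladenosine is placed on nascent mRNA by the METTL3 and METTL14 methyltransferase, preferentially in sequences such as GGAC, lies often in long exons and near stop codons, and influences how long an mRNA lasts and how it is translated.

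Ratios are given as the fold between the larger and the smaller arm, with the sign of the deposited log ratio. The table does not name the numerator. As it is titled for the drug and DMSO is the vehicle, the positive side is likely decitabine, but no value settles this. A fold within a relative 1e-08 of a multiple of 0.5 is called stepped here: whole-number totals give such a fold when the smaller arm holds the lowest counts, so its size is uncertain. Each feature of the authors' deposited table already passed a threshold (p-values up to 0.00455), so shares below describe listed features, not all transcripts. The smallest fold listed was 1.65 (a log ratio of 0.50 in size), so the median folds below also describe listed features only.

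Only 2 kinase features fell wholly inside the promoter window that RefSeq sequences cover (250 bases before to 50 after an annotated start, GRCh38.p14), so among the members only their bases can be shown. They differ in sign and in the m6A core motif, but 2 features cannot relate the one to the other. Capitals mark GGAC, and both are read 5′ to 3′ on the plus strand.
CDK13, chr7:39950321-39950370: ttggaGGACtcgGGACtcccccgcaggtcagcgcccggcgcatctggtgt
DYRK1A, chr21:37367408-37367457: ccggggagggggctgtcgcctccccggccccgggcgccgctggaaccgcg

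The CDK13 stretch, negative at 2.86-fold per the authors' deposited table, runs from 39 bases before to 10 bases after the annotated start and holds GGACT 2 times. GGAC lies within GGACT, so these are the same 2 places. Both lie before that annotated start, though inside the gene span. The DYRK1A stretch, positive at 51.5-fold per the authors' deposited table, lies 149 to 100 bases before an annotated start but inside the gene span, and holds no GGAC. On the opposite strand neither motif occurred in either stretch. Among all 50-base stretches of RefSeq promoter windows 17.1% hold GGAC and 4.53% hold GGACT on the gene's strand (17.1% and 4.54% on the other), and among the 7 listed features that lie wholly in their gene's window 3 hold GGAC and 1 holds GGACT (2 and 0 on the other strand). The stretches are rich in G and C, at 70.0% for CDK13 and 86.0% for DYRK1A, against a mean of 57.5% over the promoter stretches.

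Kinase and phosphatase features had both signs, in about the proportion of the table. Of them, per the authors' deposited table, 54 were positive and 35 negative, so 60.7% were positive (95% Wilson interval 50.3 to 70.2, covering the counting of features only). Among all listed features the positive share was 56.3%. By gene, taking the feature of smallest p-value as the leading one, 37 were positive and 28 negative, or 56.9%, against 58.9% of all listed genes. These shares do not set the members apart from the rest of the table.

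The sizes were also near those of the table. Of the members, 39.3% (35 features) reached 10-fold, against 38.5% of all features. Stepped ratios made up 31.5% of the members (28 features, 23 of them positive), against 30.6% of all features. A p-value of 0.001 or less was given to 50.6% (45 features), against 52.6% of all. The median positive member stood at 6.25-fold (quartiles 2.95 and 99.0), against 10.1-fold over all positive features. The median negative member stood at 3.31-fold (quartiles 2.27 and 9.18), against 3.95-fold over all negative features. Of the positive members 28 features were up to 6.80-fold, 26 were from 17.2-fold upward and 0 lay between. Of those 26, 23 were stepped. Among all 2604 positive features 1305 reached 10-fold, 163 of them without a stepped ratio. Whether the table as a whole has such a gap was not examined. Without stepped ratios 31 members were positive and 30 negative (50.8% against 45.3% of all), with medians of 3.09-fold and 3.03-fold.

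**Figure D1:**
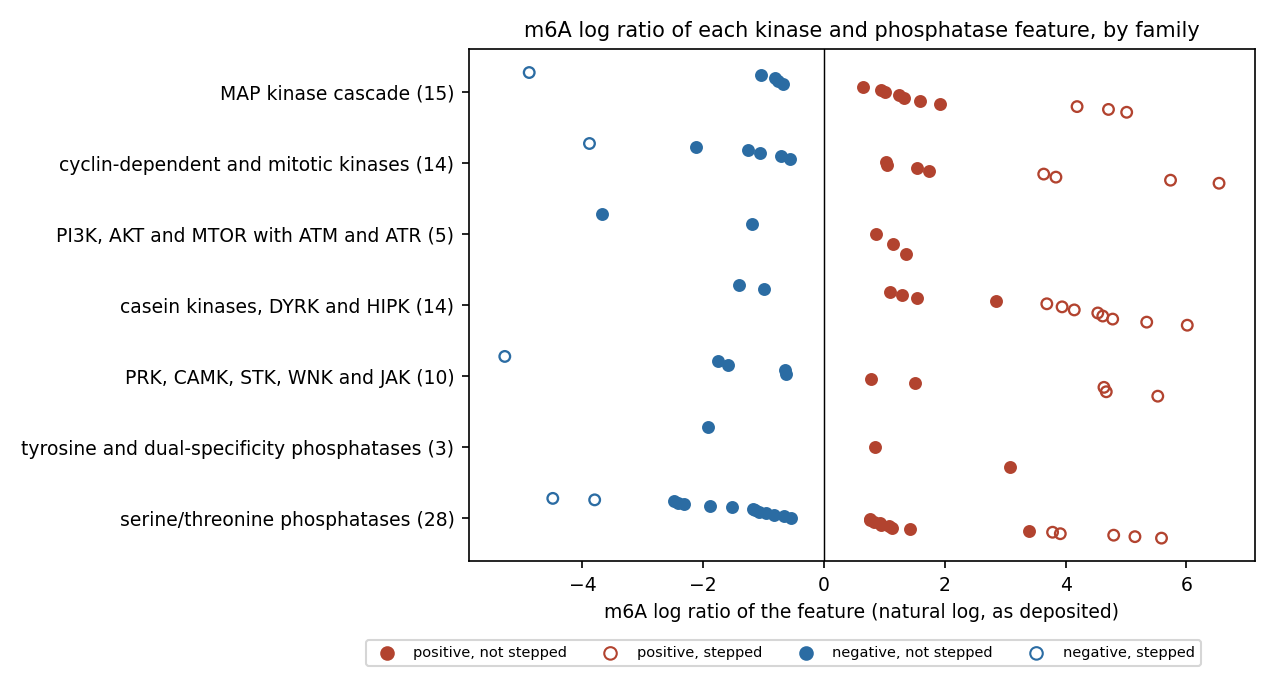
Each point is a listed feature of a kinase or phosphatase gene, placed by its deposited log ratio (natural log, horizontal axis) in its family (rows, with the number of features). Open points are stepped ratios; 12 of the 14 features of the casein kinase, DYRK and HIPK row lie on the positive side, and 8 of those 12 are open.

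**Figure D2:**
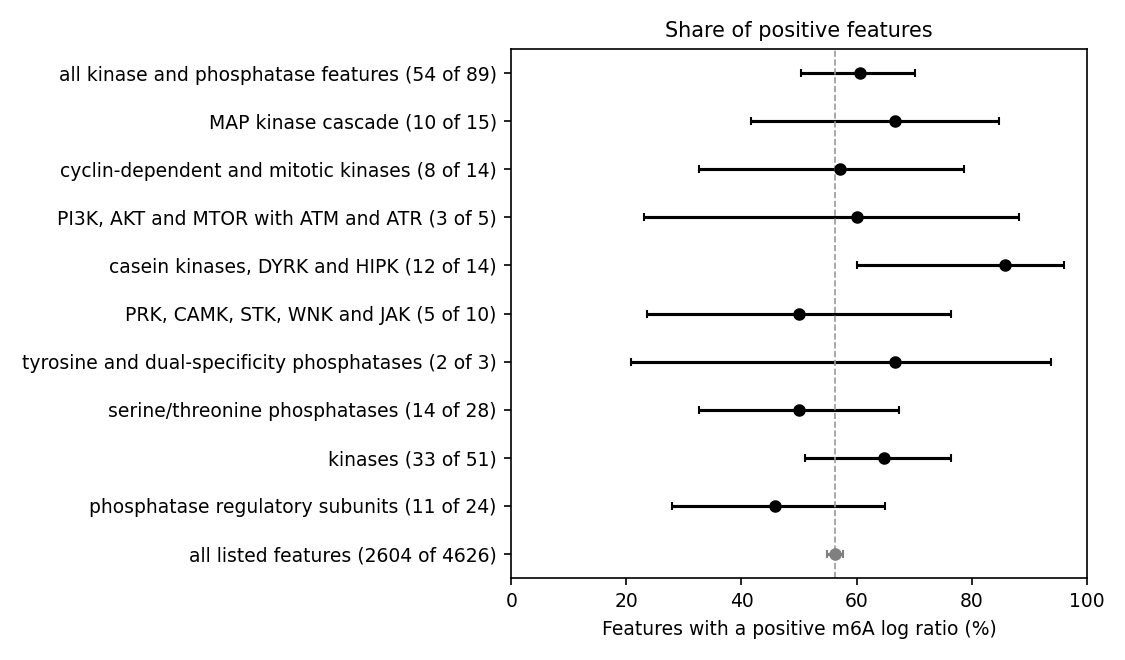
Points give the percentage of features with a positive log ratio in each family or class and bars its 95% Wilson interval, which covers the counting of features only; the dashed line is the share over all listed features (56.3%). The interval of the casein kinase, DYRK and HIPK families (60.1 to 96.0) lies above the line, and the others span it. That interval counts 5 features of CSNK1D separately. By gene it is 52.9 to 97.8, which spans the 58.9% of all listed genes.

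The casein kinases, DYRK and HIPK, all serine/threonine or dual-specificity kinases, were mostly positive. Of their features, per the authors' deposited table, 12 of 14 were positive (85.7%, interval 60.1 to 96.0), and by leading feature 7 of 8 genes. The interval by gene was 52.9 to 97.8, which spans the 58.9% of all listed genes. No test was run on this family, which is the most one-sided of 7, and 5 of its features belong to a single gene. Among all listed features 56.3% were positive. Without stepped ratios 4 of 6 features of the family remained positive (interval 30.0 to 90.3), against 45.3% of all features in that setting.

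CSNK1D, the delta isoform of casein kinase 1, which acts on clock proteins and in Wnt signalling, had the most features of any member (ENSG00000141551.14, hg38 chr17, minus strand). Its smallest p-value was at a positive 209-fold feature per the authors' deposited table (chr17:82244779-82244828, p = 6.9e-07). The other 4 lay close together in the middle of the gene span, and in order from the 5′ end the authors' deposited table gave them positive ratios of 63.0-fold (82255188 to 82255237, p = 9.9e-05), 101-fold (82254589 to 82254638, p = 2.4e-05), 409-fold (82254140 to 82254189, p = 4.2e-06) and 3.64-fold (82254040 to 82254089, p = 0.0014). All 5 features of CSNK1D were thus positive, and 4 were stepped. CSNK1A1, the alpha isoform, which primes beta-catenin for degradation, had a positive 93.0-fold stepped ratio 398 nt short of the 3′ end of its span and within that of LOC124901105 as well, per the authors' deposited table (chr5:149493380-149493429, minus strand, p = 9.5e-05). The membrane-bound isoform CSNK1G1 was at a negative 2.72-fold per the authors' deposited table.

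DYRK1A, a dosage-sensitive kinase encoded on chromosome 21, had positive stepped ratios toward both ends of its gene per the authors' deposited table, at 51.5-fold (the stretch printed above, p = 1.6e-06) and at 40.0-fold (chr21:37512229-37512278, p = 0.00060). Its relative DYRK2 had features of opposite sign 99 nt apart, a positive 119-fold stepped ratio and a negative 4.09-fold, per the authors' deposited table. The homeodomain-interacting kinases, nuclear co-regulators of transcription, were all positive and not stepped by the definition used here. HIPK3 stood at 4.66-fold per the authors' deposited table (chr11:33287305-33287354, plus strand, p = 0.0013), HIPK1 at 2.96-fold and HIPK2 at 17.2-fold. All 3 HIPK features lay between 24.7% and 30.6% of the gene span from the 5′ end.

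Among the cyclin-dependent and mitotic kinases, both CDK genes with several features held both signs. CDK12 and CDK13, which pair with cyclin K, phosphorylate RNA polymerase II and sustain transcription of long genes, each held 4 features, with negative ones nearest the 5′ end and positive ones beyond. In CDK12 (ENSG00000167258.15, chr17, plus strand) the authors' deposited table had negative features of 8.30-fold (39461736 to 39461785, p = 0.00031) and 2.04-fold (39462686 to 39462735, p = 0.00070). Beyond a gap of 100 nt the authors' deposited table listed a positive 692-fold stepped ratio (39462836 to 39462885, p = 8.0e-09), the smallest p-value of any member. A positive 2.77-fold feature followed further on (39470996 to 39471045, p = 0.0022) per the authors' deposited table. All 4 CDK12 features lay in the first 8.99% of the span.

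In CDK13 (ENSG00000065883.16, chr7, plus strand) the negative features lay 65 and 514 nt from the 5′ end of the span. The authors' deposited table put the first, printed above, at 2.86-fold (p = 0.00033) and the second at a stepped 48.5-fold (39950770 to 39950819, p = 0.0016). Its positive features lay near the other end, at 96.6% and 97.1% of the span, with 5.69-fold (40094538 to 40094587, p = 4.2e-05) and a stepped 38.0-fold (40095187 to 40095236, p = 7.1e-05) per the authors' deposited table. The remaining listed members of the family were CDK11A, which shares nearly all of its sequence with CDK11B so that reads may belong to either, at a positive stepped 46.5-fold, and CDK17 at a negative 1.76-fold per the authors' deposited table.

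NEK9 and NEK6 belong to one mitotic relay, in which NEK9 activates NEK6 for spindle assembly, and both were positive. NEK6 had a stepped 310-fold feature 149 nt short of the 3′ end of its span per the authors' deposited table (chr9:124353109-124353158, plus strand, p = 5.9e-08). NEK9 had a 4.68-fold feature toward the 3′ end (chr14:75084484-75084533, minus strand, p = 0.00028) and a 2.82-fold feature written as several blocks near the 5′ end (75124200 to 75126728, p = 0.0022) per the authors' deposited table. NEK4, linked to cilia and DNA damage responses, was at a negative 3.51-fold per the authors' deposited table. Over the family 8 of 14 features were positive (57.1%), near the 56.3% of all listed features.

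**Figure D3:**
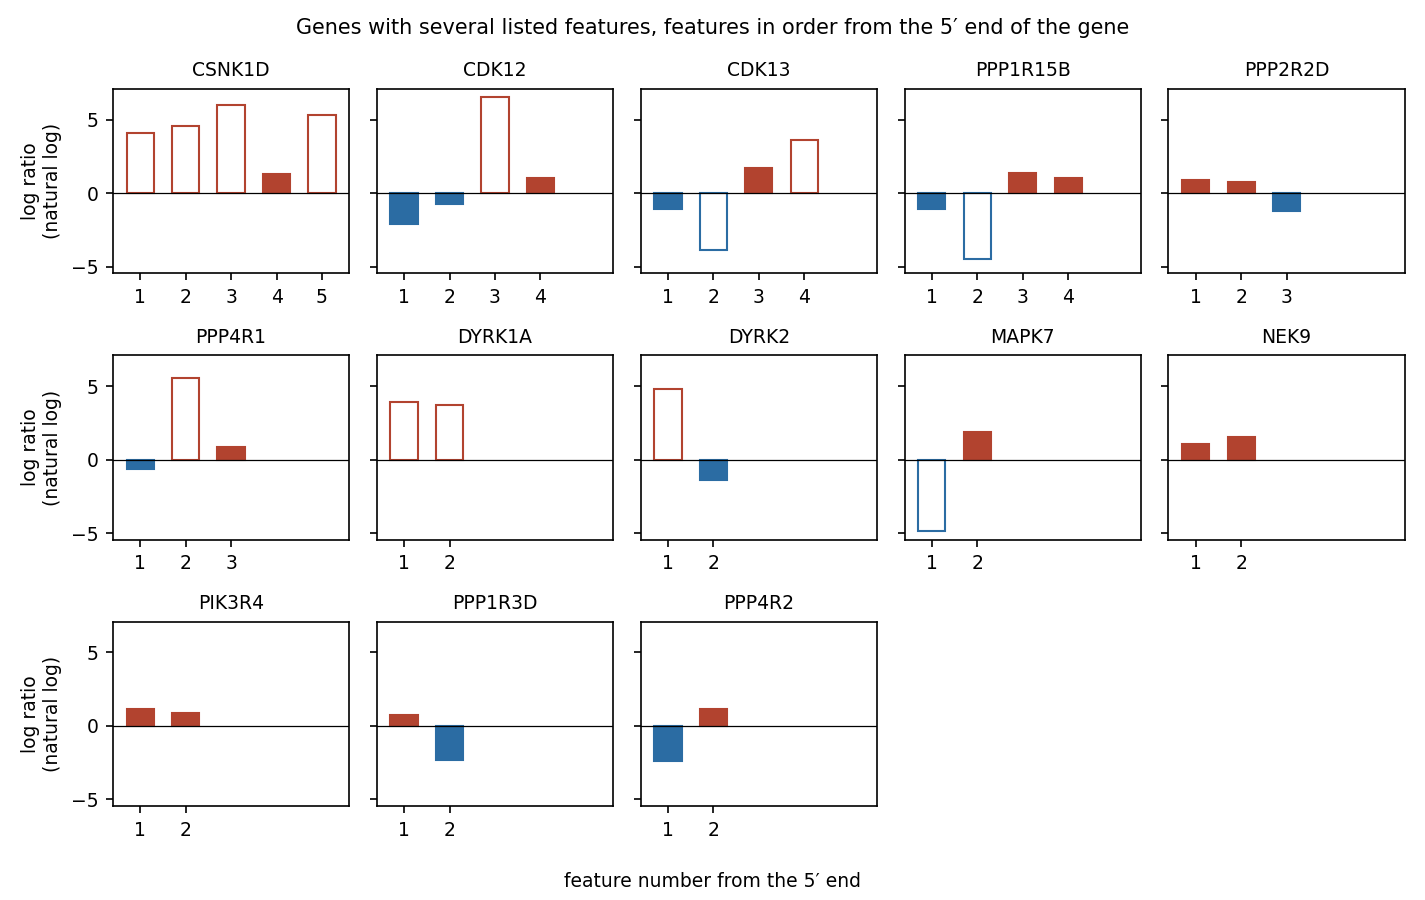
Each panel is a gene with more than 1 listed feature, with features numbered from the 5′ end of the gene (horizontal axis) and the deposited log ratio as a bar (vertical axis, natural log; white bars are stepped). Of the 9 genes with bars of both signs, 6 start negative and end positive (CDK12, CDK13, MAPK7, PPP1R15B, PPP4R1 and PPP4R2) and 3 start positive and end negative (DYRK2, PPP1R3D and PPP2R2D), while all 5 bars of CSNK1D are positive.

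The MAP kinase relay carries signals through MAP3K, MAP2K and MAPK enzymes in turn. Of its 15 features, per the authors' deposited table, 10 were positive (66.7%, interval 41.7 to 84.8), against 56.3% of all listed features. That share lies inside the interval. The MAP3K genes at the top of the relay had both signs, and 3 of them were positive with stepped ratios, whose size is uncertain. MAP3K2, which feeds the MAPK7 branch, was at a stepped 150-fold per the authors' deposited table (chr2:127307498-127307547, minus strand, p = 1.3e-07). MAP3K20 (ZAK), which responds to stalled ribosomes, was at a stepped 66.0-fold, within the span of MAP3K20-AS1 as well (chr2:173266720-173266769, plus strand, p = 2.6e-05), per the authors' deposited table. MAP3K5 (ASK1), a kinase of the oxidative stress response, was at a stepped 111-fold, 664 nt from the 5′ end of its span, per the authors' deposited table (chr6:136792378-136792427, minus strand, p = 5.1e-05).

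These 3 made up all of the positive ratios above 6.80-fold in the relay. The other MAP3K genes were smaller and mixed, with MAP3K21 at a positive 3.74-fold, MAP3K1 at a negative 2.83-fold and MAP3K4 at a negative 1.98-fold per the authors' deposited table. TAOK2, a kinase at the same tier, was at a positive 2.56-fold and MAP2K7, the activator of the JNK branch, at a negative 2.15-fold per the authors' deposited table.

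Among the terminal kinases MAPK7 (ERK5) had opposite signs 150 nt apart. The authors' deposited table gave it a negative stepped 131.5-fold (chr17:19381969-19382018, plus strand, p = 7.1e-05) and a positive 6.80-fold (19382169 to 19382218, p = 0.00020). MAPK12, a p38-type kinase, and MAPK6 (ERK3), an atypical one, were at positive 2.76-fold and 1.92-fold per the authors' deposited table. Of the partners, the JNK-binding scaffold MAPKBP1 was at a positive 4.89-fold, MAPK8IP1P2 at a positive 3.46-fold (85 nt outside the RefSeq span of that name) and MAPK1IP1L at a negative 2.26-fold per the authors' deposited table.

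The phosphoinositide 3-kinase and MTOR group had 5 features in 4 genes, none of them stepped. MTOR, the kinase that couples nutrients to growth, had a negative 39.3-fold feature 897 nt short of the 3′ end of its span per the authors' deposited table (chr1:11107432-11107481, minus strand, p = 0.00092). PIK3CD, the catalytic delta subunit typical of blood cells, was also negative near the 3′ end, at 3.31-fold (chr1:9728516-9728565, plus strand, p = 0.00068) per the authors' deposited table. The positive features lay toward the 5′ end. PIK3R4 (VPS15), the regulatory partner of the class III enzyme in autophagy, had 3.13-fold (chr3:130745179-130745228, minus strand, p = 0.00011) and 2.36-fold (130733614 to 130733663, p = 0.0044) per the authors' deposited table. AKT1S1 (PRAS40), an inhibitor subunit of the MTOR complex that AKT switches off, was at 3.87-fold per the authors' deposited table (chr19:49877072-49877121, minus strand, p = 0.0026).

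Calcium-responsive, NDR, WNK, JAK and PRK genes had 5 positive and 5 negative features, 1 for each gene, where 56.3% of all listed features were positive. CAMKK1 and its substrate CAMK1, successive steps of calcium signalling, were both positive and stepped. CAMKK1 stood at 251-fold per the authors' deposited table (chr17:3861662-3861711, minus strand, p = 0.00057). CAMK1 stood at 107-fold, 148 nt from the 3′ end and within the span of OGG1 as well, per the authors' deposited table. The NDR kinases STK38 and STK38L, of the Hippo type, were positive at a stepped 103-fold and at 4.50-fold per the authors' deposited table.

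JAK1 and JAK2, which transmit cytokine receptor signals, had opposite signs. JAK1 was at a positive 2.18-fold feature of several blocks (chr1:64864945-64866887, minus strand, p = 0.0022) per the authors' deposited table. JAK2 was at a negative 4.88-fold (chr9:5126865-5126914, plus strand, p = 0.0033) per the authors' deposited table, 3034 nt from the 3′ end, where the span of INSL6 overlaps. No test compares these 2 genes.

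The other negative genes of the group were WNK1, PRKD3, PRKDC and PRKRIP1. WNK1, a regulator of ion cotransport, was at a negative 5.75-fold near the 5′ end per the authors' deposited table (chr12:754127-754176, plus strand, p = 0.0012). PRKD3, a protein kinase D, was at a negative 1.88-fold (chr2:37317139-37317795, minus strand, p = 0.0012) and PRKDC, the catalytic subunit of DNA-dependent protein kinase, at a negative 1.89-fold per the authors' deposited table. PRKRIP1 was at a negative stepped 197-fold per the authors' deposited table (chr7:102376272-102376321, plus strand, p = 0.0013). That feature lies 20041 nt outside the RefSeq span of PRKRIP1 and within those of LOC100630923 and LOC100289561, so its gene is uncertain.

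Serine/threonine phosphatase genes had 14 positive and 14 negative features per the authors' deposited table, but by leading feature 7 positive and 12 negative genes. The negative genes were regulatory subunits with 1 exception, PPM1A. Of 15 regulatory subunit genes of the PPP type 4 were positive and 11 negative, whereas of 37 kinase genes 24 were positive and 13 negative, with 58.9% of all listed genes positive. These classes were drawn up with the values in view, and their difference was not tested. By gene the intervals were 10.9 to 52.0 for the regulatory subunits and 48.8 to 78.2 for the kinases, covering the counting of genes only. As the classes were drawn up with the values in view, these intervals cannot set a class apart from the other or from the table. The gene counts rest on the feature of smallest p-value. Of the subunit genes with both signs, PPP1R15B, PPP1R3D, PPP2R2D and PPP4R2 count as negative and PPP4R1 as positive. By feature the regulatory subunits were 45.8% positive (interval 27.9 to 64.9) and the kinases 64.7% (51.0 to 76.4). Both intervals span the 56.3% of all listed features, and they overlap, as those by gene do. Without stepped ratios the kinase genes were 13 positive and 14 negative, and the regulatory subunits 2 and 10, with 45.3% of all listed genes positive in that setting.

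PPP1R15A (GADD34) and PPP1R15B (CReP) bring protein phosphatase 1 to the translation factor eIF2 and so restore protein synthesis after stress. PPP1R15A, the inducible form, had a negative 12.1-fold feature per the authors' deposited table (ENSG00000087074.8, chr19:48874378-48874427, plus strand, p = 1.9e-05), the smallest p-value of any negative member. PPP1R15B, the constitutive form (chr1, minus strand), had 4 features. From the 5′ end the authors' deposited table gave negative 2.92-fold (204411123 to 204411172, p = 8.0e-05) and stepped 89.0-fold (204410478 to 204410527, p = 0.00027). Positive 4.14-fold (204406010 to 204406059, p = 0.0033) and 2.95-fold (204403877 to 204403926, p = 0.00027) features followed per the authors' deposited table. The leading features of both genes were thus negative.

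The glycogen-targeting subunits, which bring protein phosphatase 1 to glycogen, were all led by negative features. PPP1R3D was at a negative 10.1-fold with a positive 2.14-fold feature 100 nt away, PPP1R3E at a negative 2.61-fold and PPP1R3B at a negative 1.72-fold per the authors' deposited table. Both PPP1R3D features also lie within the span of FAM217B. PPP1R10 (PNUTS), a nuclear subunit that acts at transcription termination, was at a negative 4.58-fold per the authors' deposited table. Positive were PPP1R12C, a myosin phosphatase subunit, at a stepped 121-fold in a feature of several blocks (chr19:55097031-55098799, minus strand, p = 3.1e-06), and PPP1R9B (spinophilin) at 29.7-fold, 349 nt from the 5′ end and within the span of LOC124904025 as well, per the authors' deposited table.

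Subunits of protein phosphatases 2A, 4 and 6 followed no common sign. PPP2R5B, a B56-type subunit of protein phosphatase 2A, was at a positive stepped 44.0-fold per the authors' deposited table (chr11:64925556-64925605, plus strand, p = 5.5e-05). PPP2R2D, a B55-type subunit that is restrained at mitotic entry (chr10, plus strand), was led by a negative 3.22-fold feature (131956139 to 131956188, p = 6.7e-05) per the authors' deposited table. It also held positive features of 2.14-fold (131955739 to 131955788, p = 0.00020) and 2.57-fold (131911870 to 131911919, p = 0.0025) per the authors' deposited table. The nearer of these was 350 nt from the negative one.

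PPP4R1, a scaffold subunit of protein phosphatase 4 (chr18, minus strand), had a positive stepped 267-fold feature per the authors' deposited table (9547639 to 9547688, p = 2.7e-08). Beside it were a positive 2.29-fold (9547390 to 9547439, p = 0.0013) and, further toward the 5′ end, a negative 1.95-fold feature (9563017 to 9563066, p = 0.0025) per the authors' deposited table. PPP4R2 was led by a negative 11.2-fold feature, with a positive 3.09-fold beyond it, and PPP4R3B had a negative 3.14-fold per the authors' deposited table. Both listed subunits of protein phosphatase 6 were negative, PPP6R2 at a stepped 44.5-fold and PPP6R3 at 6.55-fold per the authors' deposited table.

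Catalytic phosphatases were fewer. PPP3CA, the catalytic subunit of calcineurin, was at a positive stepped 50-fold per the authors' deposited table. Of the metal-dependent PPM1 enzymes PPM1F stood at a positive stepped 172-fold, PPM1G at a positive 2.51-fold and PPM1A at a negative 2.28-fold per the authors' deposited table. The tyrosine and dual-specificity class had 3 listed names and only 1 of them is an intact phosphatase gene: DUSP18 at a negative 6.85-fold (chr22:30663132-30663181, minus strand, p = 0.00027) per the authors' deposited table, within the span of SLC35E4 as well. PTPRCAP, a partner of the leukocyte phosphatase CD45, was at a positive 2.33-fold (chr11:67436081-67436130, minus strand, p = 0.0029) per the authors' deposited table, within the span of CORO1B as well. The pseudogene PTPN2P1 was at a positive 21.75-fold (chr1:178746732-178746781, minus strand, p = 0.00013) per the authors' deposited table. It lies within the span of RALGPS2, and reads of its parent PTPN2 may also fall there.

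**Figure D4:**
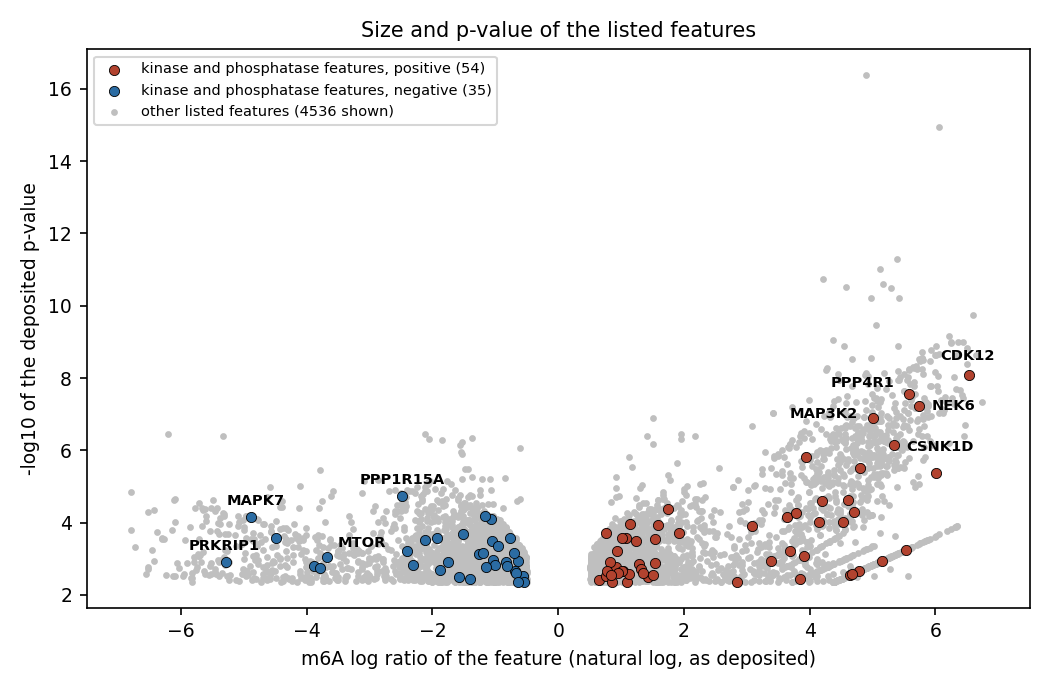
Each point is a listed feature, with the deposited log ratio (natural log) on the horizontal axis and −log10 of the deposited p-value on the vertical axis; coloured points are the 54 positive and 35 negative kinase and phosphatase features and grey points the others (1 feature with a log ratio of 20.8 is outside the axis). CDK12, PPP4R1, NEK6 and MAP3K2 have the smallest p-values of the members, all with positive stepped ratios.

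Features of one gene often differed in sign. Of the 13 member genes with more than 1 feature 9 held both signs, 4 (CSNK1D, DYRK1A, NEK9 and PIK3R4) only positive ones and 0 only negative ones. This is 69.2%, against 58.4% of the 946 such genes of the table. From the 5′ to the 3′ end, 6 of the 9 ran from a negative to a positive feature and 3 the other way, against 41.3% and 41.5% of the 552 genes of the table with both signs. The remaining 17.2% of the 552 had the same sign at both ends, as 0 of the 9 did, so the shares are not directly comparable. Neighbouring features no more than 200 nt apart had opposite signs in 4 of 6 pairs (CDK12, DYRK2, MAPK7 and PPP1R3D), against 48.3% of 360 pairs in the table. Within 500 nt it was 5 of 9 pairs, with PPP2R2D added, against 46.8%. So few pairs cannot separate these shares.

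The members lay further from the 3′ end of their genes than the listed features did as a whole. The median member feature was 7330 nt from the 3′ end of the RefSeq gene span, introns included, against 4022 nt for all listed features, and at 72.2% of the span, against 81.8%. The last 20% of the span held 39.1% of the members and 52.4% of all features, and the first 20% held 20.7% and 10.8%. Several features of 1 gene count separately here, and whether kinase genes are longer was not examined. Under 500 nt from the 3′ end all 7 member features were positive (CAMK1, NEK6, MAPK12, STK38, PTPN2P1, PPM1G and CSNK1A1), where 59.1% of all 372 listed features were. Of these 7, 4 were stepped. Under 1000 nt it was 10 of 13 features (76.9%), against 56.8% of 752, and PIK3CD, PPP1R10 and MTOR held the negative ones.

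Other genes of the same signalling systems came from lists of known kinases, phosphatases and partners. Of 108 kinase-family symbols that the name stems do not match, older names such as ZAK included, 28 were listed. Of these, 20 were led by a positive feature and 8 by a negative one (71.4%, against 58.9% of all listed genes). RPS6KA1, a kinase downstream of ERK, was at a positive stepped 80.0-fold per the authors' deposited table (p = 4.4e-07). CIT, a cytokinesis kinase, was at a positive stepped 210-fold (p = 3.4e-06) and HASPIN, a histone H3 kinase, at a positive 2.50-fold (p = 5.5e-06) per the authors' deposited table.

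Of 49 further genes of phosphatase families, inactive relatives included, 14 were listed, 9 positive and 5 negative (64.3% positive). MTMR12, an inactive myotubularin, was at a positive stepped 141-fold, PDP2, of the pyruvate dehydrogenase complex, at positive 18.6-fold and 2.52-fold, and TAB1, an inactive relative of the PPM1 enzymes that activates MAP3K7, at a negative 3.66-fold per the authors' deposited table. CTDP1, which acts on RNA polymerase II, the substrate of CDK12 and CDK13, had positive 13.1-fold and 2.05-fold features and a negative 4.17-fold per the authors' deposited table. Of 82 cyclins, CDK inhibitors and signalling partners 24 were listed, 17 positive and 7 negative (70.8% positive). Without stepped ratios the kinases were 16 positive and 9 negative, the phosphatase families 7 and 6, and the partners 11 and 8, with 45.3% of all listed genes positive. None of these 3 lists was tested against the table. RICTOR, the defining subunit of the second MTOR complex, was at a positive stepped 217-fold (p = 8.7e-08) per the authors' deposited table. RPTOR, the defining subunit of the first MTOR complex, named here after its value was seen, was at a negative 4.37-fold (p = 9.7e-05), the sign of MTOR, per the authors' deposited table. ATRIP, the partner of ATR, was at positive stepped 104-fold and 90.0-fold, SOCS5, an inhibitor of cytokine signalling, at a positive stepped 56.5-fold and a negative 2.21-fold, and AKAP17A at positive 16.0-fold and 2.37-fold per the authors' deposited table.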

How the data were processed

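MeRIP-seq of HL-60 cells was done with 8 libraries in 4 groups of 2, grouped by title. Per the labels' protocols, each immunoprecipitation took 2 µg of fragmented RNA and 5 µg of an antibody to m6A, and libraries were read as single 50-base reads. The submitters' processing notes name STAR 2.7.3a and hg38; what scored the features is not stated in them. The deposited log ratio was taken as a natural log: raised as a power of that base it gave a multiple of 0.5 for 1415 features, and for 0 with base 2. The p-value is the authors' own, deposited without a word on adjustment. In all 194 features of several blocks the written end was the last base, so coordinates count from 1 and include the end.

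Spans of genes are those of RefSeq on GRCh38.p14, whose primary assembly is that of hg38. All 65 member names matched, 87 of 89 features lay inside the span, and 11 features of 10 genes also lay over another gene. RefSeq promoter sequences covered 52 of the 65 names. Exons and UTRs were not annotated here. Counts, shares with 95% Wilson intervals and medians were set beside the same over all listed features, and no test was run. The lists and classes, like the members, were chosen with earlier results of these data known. Members were named in family order, with coordinates for up to 4 genes of a family by p-value, for those with 3 or more features and for a few genes of prior interest. From each other list the 4 genes of smallest p-value were named, except 1 that is not reported here. The detection of stepped ratios was tested on simulated data. Software was matplotlib 3.10.9, scipy 1.17.1, numpy 2.4.6 and pandas 2.3.3 under Python 3.11.15. The alternatives were leaving out stepped ratios or features of several blocks, a stricter p-value, another feature to stand for a gene, base 2, and kinase and phosphatase subunits only.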

Additional observations from a re-analysis of the deposited data

How the results depend on the processing

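The positive share of member features lay between 50.8% and 64.4%, and that of member genes between 44.9% and 63.6%, under each alternative run. These shares lie within the counting intervals of the main setting, which do not measure dependence on processing. In the main setting 37 member genes were positive and 28 negative. Without stepped ratios 49 of the 65 kept a feature, and negative genes were in the majority (22 positive and 27 negative). In that setting 45.3% of all listed genes were positive. The median positive fold moved to 3.09 without stepped ratios, which takes away 23 positive features, and to 3.56 with base 2, which rescales every fold. It moved to 50 at a p-value of 0.001 or less, for which the cause was not tested. With kinase and phosphatase subunits only it moved to 17.2. That setting leaves out 5 positive features, at 2.33-fold, 3.46-fold, 3.87-fold, 4.89-fold and 21.75-fold. No positive member lies between 6.80-fold and 17.2-fold, and the median crossed that gap. The stepped and p-value alternatives keep fewer features by construction. Without stepped ratios the positive counts were 4 of 9 for cyclin-dependent and mitotic kinases and 4 of 6 for casein kinases, DYRK and HIPK. They were 2 of 6 for the PRK to JAK group and 9 of 21 for serine/threonine phosphatases, with 45.3% of all listed features positive without stepped ratios. In that setting, added after seeing the data for what follows, 3 features under 500 nt from the 3′ end were positive and 0 negative. Of all 238 listed features there, without stepped ratios, 46.2% were positive. Further, 7 genes held both signs and 2 a single sign, for which no share over the whole table was computed. Kinase genes were 13 positive and 14 negative, and regulatory subunit genes 2 positive and 10 negative. At a p-value of 0.001 or less the MAP kinase relay had 2 negative features, cyclin-dependent and mitotic kinases 5 positive and the MTOR group 1 positive. Casein kinases, DYRK and HIPK had 7 positive and 0 negative at that cut, which 0 of their features without a stepped ratio met. The PRK to JAK group had 1 positive and 0 negative, tyrosine and dual-specificity phosphatases 1 positive, and serine/threonine phosphatases 6 positive and 7 negative. The positive share of all listed features or genes at that cut was not computed. No such share therefore stands beside these counts or beside 64.4% and 63.6%. The 2 features outside their gene span had no position, so leaving them out changed none. No paired analysis was possible because the table holds no value per library, and for the same reason no replicate could be left out. Depth is unknown, so the number of reads behind a ratio cannot be given.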

Other observations

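Some large ratios of member genes that are not stepped were other simple fractions. Per the authors' deposited table MTOR stood at 39.3333-fold, PPP1R9B at 29.6667-fold, HIPK2 at 17.1667-fold and PTPN2P1 at 21.75-fold, 4 of the 7 members of 10-fold or more without a stepped ratio. The count without stepped ratios is therefore not free of such values.

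Members close to the 5′ end of their gene span were of both signs. Under 1000 nt from it 8 features lay, 4 positive (PPP1R9B, NEK9, MAP3K5 and PPP1R3D) and 4 negative (2 of CDK13 and 1 each of CDK12 and PPP1R15B), against 60.7% positive among 272 listed features there.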
